A study of Homo sapiens with 18 samples.

Results

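Lysosomes are the acidic compartments in which cells break down proteins, glycans and lipids, and autophagy is the route that wraps cytoplasmic cargo in a membrane and delivers it to them. Soluble hydrolases do the cutting, small activator proteins present lipids to them, membrane proteins line and permeate the organelle, and a proton pump keeps its interior acidic. Many of these genes carry a palindromic promoter motif, the CLEAR element, that is bound by the transcription factor TFEB. In liver cells the same compartment breaks down lipid droplets and lipoproteins taken up from outside. The set described here holds 36 gene symbols of that system, taken by name from the deposited count table of 35238 genes. It comprises 16 hydrolases, 3 activators or lipid carriers, 5 membrane proteins, 4 proton pump subunits, the regulator TFEB and 7 autophagy genes. Of the 36, 35 passed a filter on low counts, among 14797 genes that did. The exception was the protease gene CTSZ, with 0.0282 to 0.343 CPM (counts scaled to a common library total) per library, where 3 counts correspond to 0.0857 to 0.107 CPM.

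The genes were measured by RNA sequencing in HepG2, an established human liver cancer cell line, in a study of ligands of the nuclear receptor LRH-1. There were 18 libraries in 6 groups of 3. DMSO at 0.1% and ethanol at 0.1% were the vehicles. Cells received 10 µM of 1 of 3 small molecules, named 6N, 10CA and 6N-10CA in the labels, or 100 µM of DLPC, the phospholipid dilauroylphosphatidylcholine. All groups were treated in medium with charcoal-stripped serum, and the length of treatment is not given in the sources used here. The labels do not name the vehicle of each compound, so what is known of the study was used to set the small molecules against DMSO and DLPC against ethanol; the opposite vehicle was an alternative. Nothing in the labels says that the 3 libraries of a group came from separate cultures, so every p-value measures the spread between these libraries, which may be technical.

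Library totals ran from 28135967 to 34992442 counts, and the 36 genes together held 0.728% to 0.785% of them. Summed hepatocyte markers (ALB, APOA1, APOB, AFP, TTR, SERPINA1, TF, HNF4A, FGB) stood at 53026 to 69682 CPM. The 4 stromal markers summed to 6.07 to 11.1 CPM, the 4 endothelial markers to 29.8 to 46.5 CPM and the 4 blood cell markers to 331 to 507 CPM, nearly all of the last from LYZ and CD68. The endothelial receptor gene KDR and the haemoglobin gene HBB were at 0 counts in every library, and the leukocyte gene PTPRC averaged 0.197 CPM. The blood cell sums given below thus follow LYZ (mean 314 CPM) and CD68 (mean 91.2 CPM), and do not by themselves show blood cells. Mitochondrial genes held 0.391% to 0.517% of counts. In bulk RNA, fewer cells of a kind and less RNA per cell cannot be told apart.

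The promoter motif that links many lysosomal genes is shown first, because the values below are set against it. The 6-base core CACGTG, the 8-base TCACGTGA and the 10-base GTCACGTGAC are nested, and each reads the same on both strands. They were searched in RefSeq promoter windows (GRCh38.p14, 250 bases before to 50 after the start of the gene), which matched 27 of the 36 genes. Each matched gene gave 1 window, while the promoters set beside them were not limited to 1 per gene or to tested genes. The set was chosen by name, so the shares are a description only. CACGTG occurred in 8 of the 27 (29.6%) and in 7.26% of 35116 promoters. TCACGTGA occurred in 6 of the 27 (22.2%) and in 0.98% of promoters, and GTCACGTGAC in 2 (7.41%) and in 0.353%. Of the genes called below, LIPA, GM2A and WIPI1 had no CACGTG in this window. CTSB, HEXA, NAGLU, ASAH1, PSAP, LAMP2, ATP6V1A, ATP6V1H and UVRAG were not matched. The window of 30 bases around 1 motif in each of the 8 genes follows, 5′ to 3′ on the strand of the gene, with the longest motif found there in capitals.
GAA, chr17:80101538-80101567, plus strand: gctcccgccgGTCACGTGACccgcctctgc
MCOLN1, chr19:7522598-7522627, plus strand: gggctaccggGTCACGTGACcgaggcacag
CTSA, chr20:45891298-45891327, plus strand: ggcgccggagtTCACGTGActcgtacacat
LAMP1, chr13:113297199-113297228, plus strand: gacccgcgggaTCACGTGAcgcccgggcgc
CLN3, chr16:28492058-28492087, minus strand: cgcgggtgctgTCACGTGAtccgacaaacg
ATP6V0D1, chr16:67481199-67481228, minus strand: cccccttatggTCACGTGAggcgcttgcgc
NEU1, chr6:31862930-31862959, minus strand: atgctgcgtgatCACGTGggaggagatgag
CTSD, chr11:1763957-1763986, minus strand: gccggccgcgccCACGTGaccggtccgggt

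The genes differed widely in level. Mean CPM over all 18 libraries was divided by the summed length of all annotated exons, so a gene with many annotated exons reads low on this scale. PSAP, whose protein is cut into the saposins that activate sphingolipid hydrolases, led with 326 CPM per kb. The aspartic protease gene CTSD followed with 274, the cysteine protease gene CTSB with 151, the sialidase gene NEU1 with 99.2 and the proton pump accessory gene ATP6AP1 with 57.7 CPM per kb. At the low end were TFEB with 1.73, the kinase gene ULK1, which starts autophagy, with 1.55, and CTSZ with 0.0813 CPM per kb. The libraries of a group lay close together. The median SD of log2 CPM within groups was 0.063 over the 35 genes, from 0.031 for the thioesterase gene PPT1 to 0.20 for ULK1, and 0.091 over 10686 genes above 5 CPM. The change was measured as log2 fold change with its standard error (SE). A gene was called where the p-value of edgeR's quasi-likelihood test, adjusted by Benjamini-Hochberg over all 14797 genes, was under 0.05. Counts at an unadjusted p under 0.05 are given without the share of all genes, which was not computed. They therefore cannot show an excess in the set.

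**Figure D1:**
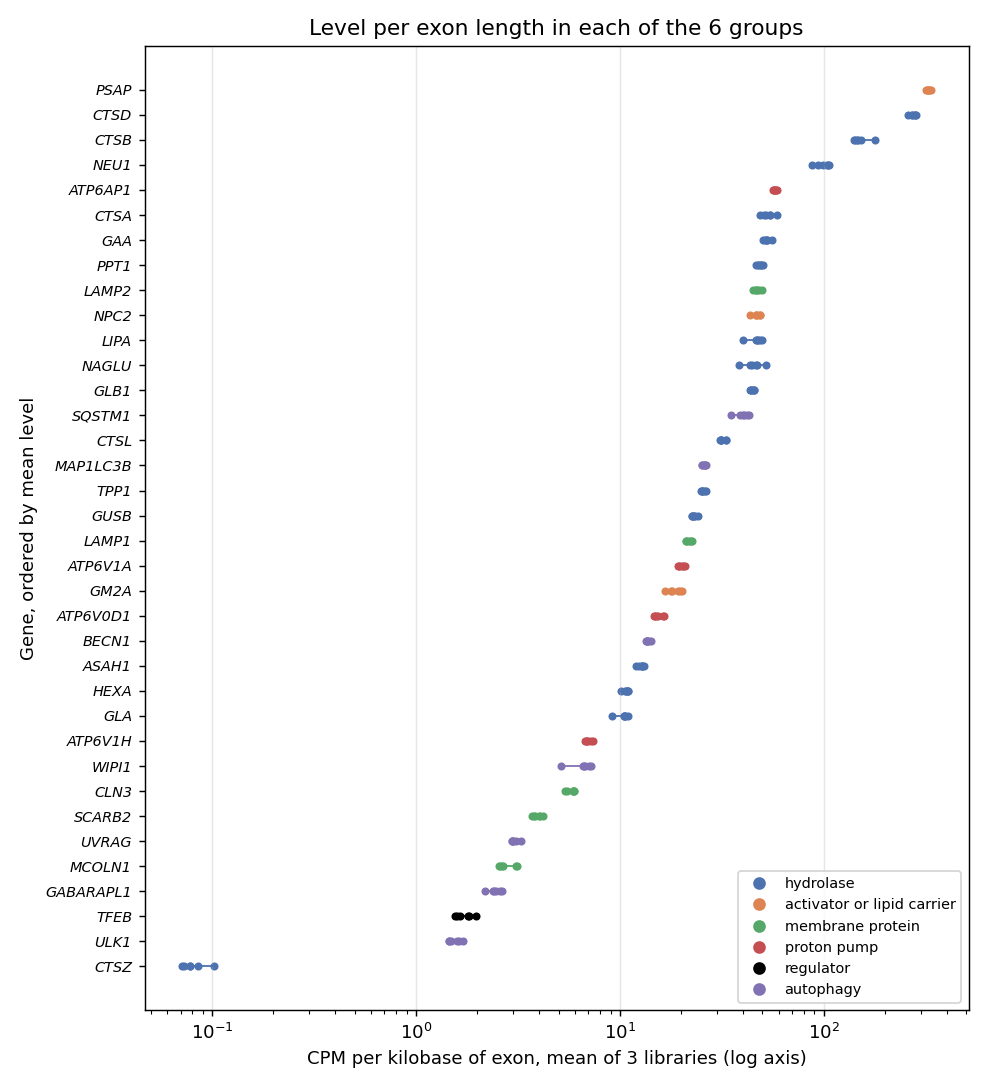
Level of the 36 genes in CPM per kb of annotated exon, on a log axis; each point is the mean of 1 group of 3 libraries, colours show the role, and genes are ordered by their mean over 18 libraries. PSAP, CTSD and CTSB lie highest, with means of 326, 274 and 151 CPM per kb, and CTSZ lies lowest with 0.0813.

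In 6N against DMSO the protease gene CTSB rose, and the heparan sulfate hydrolase gene NAGLU, the acid lipase gene LIPA, the ganglioside activator gene GM2A and the autophagosome gene WIPI1 fell. These 5 of 35 genes (14.3%) compare with 1.14% of all genes called in 6N against DMSO, 0.297% higher and 0.845% lower, in a list that was chosen with earlier results of these data known. At an unadjusted p under 0.05 there were 8 genes, as many as in DLPC against ethanol, and the effects of 6N and DLPC were not tested against each other. In all, 12 of the 35 had fold changes above 0 and 23 below, with a median log2 fold change of -0.03 against -0.00060 over all genes. The median was 0.01 against ethanol and -0.05 without 6N replicate 1. The groups did not overlap for 7 of the 35 (20.0%), against 13.6% of all genes. Blood cell markers summed to 331 to 378 CPM in the 6N libraries and 390 to 407 in DMSO, and stromal markers to 6.07 to 7.03 CPM under 6N, where the lowest DMSO library had 6.98. Their part in these results was not tested.

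CTSB encodes cathepsin B, a cysteine protease. It stood at 1057, 1015 and 1078 CPM in the DMSO libraries and at 1411, 1227 and 1332 CPM in the 6N libraries. All 6N libraries lay above all DMSO libraries, and above every library of the other 4 groups, which ran from 1002 to 1190 CPM. The rise was 1.26-fold (log2 fold change 0.33, SE 0.06, edgeR adjusted p = 0.00494). It passed the threshold in all 15 alternatives run, with adjusted p from 2.3e-07 to 0.0420.

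NAGLU encodes the enzyme that removes terminal N-acetylglucosamine from heparan sulfate (chromosome 17, 42536172 to 42544449, plus strand). Its libraries held 142, 138 and 137 CPM under DMSO and 120, 115 and 112 CPM under 6N. Every 6N library lay below every other library of the study, the lowest of which was a 6N-10CA library at 127 CPM. The level fell by 16.9% (log2 fold change -0.27, SE 0.05, edgeR adjusted p = 0.00251). This call too held in all 15 alternatives, with adjusted p from 5.7e-06 to 0.0269. NAGLU shares 12.6% of its exon bases with a noncoding transcript on the same strand.

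LIPA encodes the lysosomal acid lipase, which hydrolyses cholesteryl esters and triglycerides (chromosome 10, 89213569 to 89414557, minus strand). It stood at 233, 232 and 219 CPM under DMSO and at 199, 194 and 199 CPM under 6N. The 6N libraries were the lowest 3 of all 18. The level fell by 13.6% (log2 fold change -0.21, SE 0.04, edgeR adjusted p = 0.0111). The adjusted p ran from 0.00015 to 0.0891 over 15 alternatives, and the call was lost without DMSO replicate 1 (0.0836), DMSO replicate 2 (0.0564) or 6N replicate 2 (0.0772), and with only these 2 groups fitted (0.0891).

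GM2A encodes the protein that lifts the ganglioside GM2 from membranes for cleavage (chromosome 5, 151212150 to 151270440, plus strand). It stood at 85.1, 92.3 and 82.8 CPM under DMSO and at 74.5, 76.1 and 73.2 CPM under 6N. The groups did not overlap, though the ethanol libraries (79.1, 80.7 and 81.9 CPM) lay between them. GM2A was lower under 6N (log2 fold change -0.22, SE 0.05, edgeR adjusted p = 0.0293). It was also called in 7 of 15 alternatives. The call was lost against ethanol (log2 fold change -0.11, adjusted p = 0.367), against both vehicles averaged (0.0574), with only the 2 groups fitted (0.147) and without DMSO replicate 1 (0.0804), DMSO replicate 2 (0.174) or 6N replicate 1 (0.0997), 2 (0.0796) or 3 (0.122). Over the 15 the adjusted p ran from 0.0019 to 0.367.

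WIPI1 encodes a protein that binds phosphoinositide on the forming autophagosome (chromosome 17, 68420948 to 68457513, minus strand). It stood at 21.6, 25.6 and 21.5 CPM under DMSO and at 17.8, 16.5 and 18.3 CPM under 6N. The 6N libraries were again the lowest 3 of all 18. The level fell by 23.4% (log2 fold change -0.38, SE 0.08, edgeR adjusted p = 0.0105). The call was lost without DMSO replicate 2 (0.0797) or 6N replicate 2 (0.0849) and with only these 2 groups fitted (0.0813), within a range of 0.00063 to 0.0849 over 15 alternatives. WIPI1 shares 24.3% of its exon bases with ARSG on the opposite strand, and whether the counting used strand is not given in the sources used here. ARSG itself averaged 4.06 CPM under 6N and 4.47 CPM under DMSO (log2 fold change -0.14, edgeR adjusted p = 0.898).

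**Figure D2:**
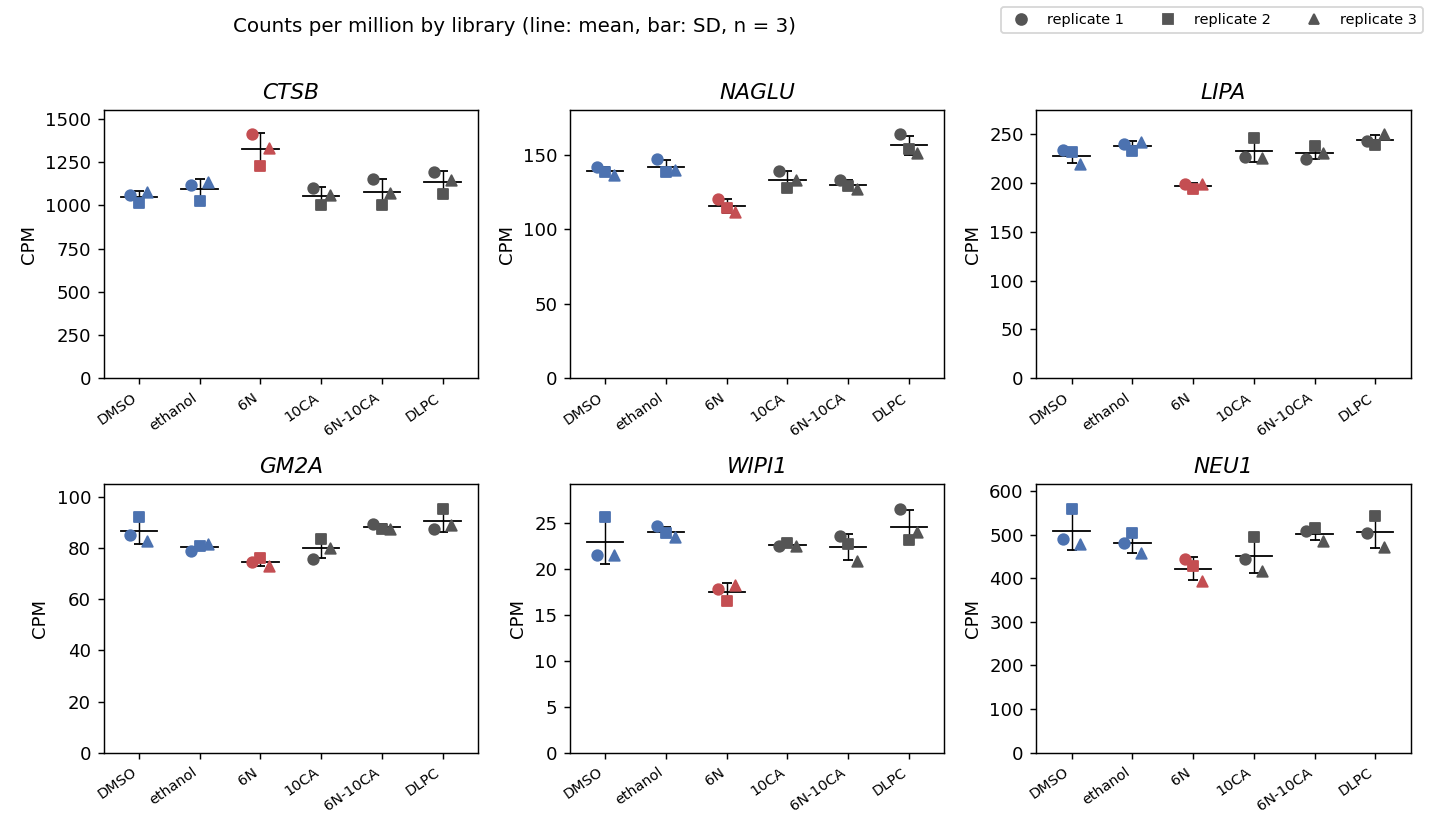
CPM of CTSB, NAGLU, LIPA, GM2A and WIPI1, the 5 genes called without the replicate block in at least 1 of 8 comparisons. NEU1, which came nearest to such a call, is also shown. Points are the 18 libraries, horizontal lines the means of 3 and error bars the SD. The 6N libraries lie at 1227 to 1411 CPM for CTSB, above all others, and at 16.5 to 18.3 CPM for WIPI1, below all others.

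The other genes did not pass the threshold in the main fit of 6N against DMSO. With the replicate number as a block in the fit, NEU1 (edgeR adjusted p = 8.1e-05), HEXA (0.0433) and CTSA (0.0439) passed. Not every same-numbered pair of libraries passed the pairing check here. NEU1 also passed without the filter on low counts (edgeR adjusted p = 0.0012). In the main fit NEU1 came nearest. It stood at 489, 560 and 479 CPM under DMSO and 444, 429 and 393 CPM under 6N, with no overlap (log2 fold change -0.27, SE 0.07, edgeR adjusted p = 0.0778). HEXA, the alpha subunit of beta-hexosaminidase, stood at 139, 137 and 138 CPM and at 133, 127 and 122 CPM, with a log2 fold change of -0.12 (adjusted p = 0.335). CTSA, which shields NEU1 and beta-galactosidase from breakdown, stood at 303, 355 and 294 CPM under DMSO and 346, 361 and 331 CPM under 6N, with overlap (log2 fold change 0.12, adjusted p = 0.720). Among the 5 membrane proteins the log2 fold changes lay between -0.05 and 0.03, and among the 4 proton pump subunits between -0.07 and 0.04. TFEB stood at 9.53, 11.3 and 9.94 CPM under DMSO and at 11.1, 9.83 and 9.67 CPM under 6N, groups that overlapped (log2 fold change -0.01, 95% interval -0.21 to 0.20). Beside WIPI1, the autophagy genes overlapped between the groups. They include the cargo receptor gene SQSTM1 (log2 fold change 0.04) and the membrane-conjugated MAP1LC3B (-0.04), whose near-identical copy MAP1LC3B2 could share its reads.

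10CA against DMSO called none of the 35 genes, and 0% of all genes, by edgeR. At an unadjusted p under 0.05 there were 4 of the 35, and DESeq2 and limma-voom called 0. For 9 genes, or 25.7%, the groups did not overlap, against 12.8% of all genes. Fold changes were above 0 for 10 genes and below for 25, with a median of -0.05 on the log2 scale against -0.00057 over all genes. The median was -0.023 against ethanol and -0.028 without DMSO replicate 2. Mitochondrial genes held 0.391% to 0.416% of counts under 10CA and 0.430% to 0.470% under DMSO, and their part was not tested. The smallest p belonged to MCOLN1, the calcium channel gene of the lysosomal membrane. It stood at 11.3, 13.0 and 12.8 CPM under DMSO and 10.0, 10.4 and 9.70 CPM under 10CA, without overlap (log2 fold change -0.30, SE 0.09, adjusted p = 0.663). SCARB2, which carries glucocerebrosidase to lysosomes, stood at 79.5, 70.1 and 72.5 CPM and at 79.8, 82.9 and 82.1 CPM (log2 fold change 0.14, adjusted p = 0.665). NEU1 had a log2 fold change of -0.17 (adjusted p = 0.679), with overlapping groups. The 95% interval lay within 0.5 of 0 on the log2 scale for all 35 genes and within 0.25 for 27. For the 5 genes called under 6N, the 10CA values were 0.01 for CTSB, -0.06 for NAGLU, 0.03 for LIPA, -0.12 for GM2A and -0.02 for WIPI1, on the log2 scale against the same DMSO libraries.

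The 8 genes with CACGTG in the promoter window are set out here as a description. In 10CA against DMSO 7 of the 8 had fold changes below 0, with a median of -0.13 on the log2 scale. The 18 tested genes of the set whose window lacked the motif had 12 below 0 and a median of -0.03, and all 1053 tested genes with the motif had a median of 0.0051. In 6N-10CA against DMSO the 8 had a median of -0.08, with 6 below 0, and in 6N against DMSO a median of -0.01, with 5 below 0. In ethanol against DMSO, a comparison of vehicles, 6 of the 8 were also below 0, with a median of -0.048. Without the replicate block none of the 8 was called in these 4 comparisons, which share the DMSO libraries. With it, NEU1 was called lower and CTSA higher in 6N against DMSO.

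6N-10CA against DMSO likewise called none of the 35, where 0.264% of all genes were called by edgeR. At an unadjusted p under 0.05 there were 3 genes, and DESeq2 and limma-voom called 0. With the replicate number as a block, which these 2 groups' libraries bear out as a pairing, the count stayed at 0 of 35, against 3.8% of all genes. No overlap between the groups was seen for 7 genes, or 20.0%, against 14.8% of all genes. Values were above 0 for 10 genes and below for 25, with a median log2 fold change of -0.05 against 0.00065 over all genes. The median was -0.012 against ethanol and -0.029 with both vehicles averaged. Blood cell markers summed to 356 to 362 CPM under 6N-10CA, below DMSO, and endothelial markers to 35.8 to 37.4 CPM, above the 32.6 to 34.9 of DMSO; their part was not tested. MCOLN1 again had the smallest p, at 10.9, 10.3 and 9.33 CPM under 6N-10CA (log2 fold change -0.28, SE 0.09, edgeR adjusted p = 0.263). The lysosomal membrane protein gene CLN3 stood at 56.8, 60.5 and 57.6 CPM under DMSO and 54.7, 53.1 and 52.1 CPM under 6N-10CA (log2 fold change -0.13, adjusted p = 0.409). NAGLU had a log2 fold change of -0.10 (adjusted p = 0.481), again without overlap. The 6N-10CA values of the other genes called under 6N were 0.04 for CTSB, 0.02 for LIPA, 0.02 for GM2A and -0.03 for WIPI1, on the log2 scale.

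The 3 small molecules had the same dose, so each of the 3 pairs was compared directly. Both comparisons with 6N use the 6N libraries that also stand in 6N against DMSO, and so are not separate evidence on them. In 10CA against 6N, 4 of 35 genes were called (11.4%), 3 higher and 1 lower under 10CA, against 1.71% of all genes (1.05% higher and 0.662% lower). Summed blood cell markers (381 to 431 CPM under 10CA, 331 to 378 under 6N) and stromal markers (9.27 to 11.1 and 6.07 to 7.03 CPM) stood apart between these groups. So did the mitochondrial share, at 0.391% to 0.416% under 10CA and 0.427% to 0.453% under 6N, and their part in the calls was not tested. LIPA was higher under 10CA, at 226, 246 and 226 CPM (log2 fold change 0.24, SE 0.04, edgeR adjusted p = 0.00317). WIPI1 was higher, at 22.5, 22.8 and 22.5 CPM (0.37, SE 0.08, adjusted p = 0.0130). NAGLU was higher, at 139, 128 and 133 CPM (0.21, SE 0.05, adjusted p = 0.0213). CTSB was lower, at 1102, 1002 and 1059 CPM (log2 fold change -0.33, SE 0.06, adjusted p = 0.00510). In each of these 4 genes the 10CA and 6N libraries did not overlap. Over 13 alternatives the adjusted p ran from 3.9e-06 to 0.0740 for LIPA, from 0.00092 to 0.0896 for WIPI1, from 0.00018 to 0.152 for NAGLU and from 2.6e-07 to 0.0392 for CTSB. The NAGLU call was lost without 6N replicate 2 (0.102), 6N replicate 3 (0.0732), 10CA replicate 1 (0.103) or 10CA replicate 3 (0.0960). The WIPI1 call was lost without 6N replicate 2 (0.0896) or 10CA replicate 3 (0.0528). With only these 2 groups fitted, CTSB alone was called, and LIPA had an adjusted p of 0.0740.

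GM2A did not pass between 10CA and 6N. Its 10CA libraries held 76.0, 83.6 and 80.2 CPM and overlapped with those of 6N (log2 fold change 0.10, 95% interval -0.0040 to 0.20, edgeR adjusted p = 0.386). CTSA stood at 276, 310 and 272 CPM under 10CA and 346, 361 and 331 CPM under 6N. The groups did not overlap, and the call was missed (log2 fold change -0.27, SE 0.08, edgeR adjusted p = 0.0893). MCOLN1 stood at 12.4, 13.0 and 11.3 CPM under 6N, above all 10CA libraries (log2 fold change -0.28, adjusted p = 0.137). SCARB2 was at 72.9, 71.9 and 75.2 CPM under 6N, below all 10CA libraries (log2 fold change 0.15, adjusted p = 0.132). The proton pump gene ATP6V0D1 stood at 118, 134 and 112 CPM under 10CA and 139, 138 and 125 CPM under 6N, with overlap (log2 fold change -0.14, adjusted p = 0.427). Over the 35 genes, 9 (25.7%) did not overlap, against 16.7% of all genes, and the median log2 fold change was -0.02 against 0.0039 over all genes. The median was 0.0047 without 6N replicate 1 and -0.00037 without 10CA replicate 2.

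6N-10CA against 6N called 4 of 35 genes (11.4%), 3 higher and 1 lower under 6N-10CA, against 1.64% of all genes (1.12% higher and 0.514% lower). Endothelial markers summed to 35.8 to 37.4 CPM under 6N-10CA and 29.8 to 35.2 under 6N, without overlap, and their part in the calls was not tested. LIPA was higher, at 224, 238 and 231 CPM (log2 fold change 0.23, SE 0.04, edgeR adjusted p = 0.00447). GM2A was higher, at 89.5, 87.5 and 87.6 CPM (0.24, SE 0.05, adjusted p = 0.0122). WIPI1 was higher, at 23.6, 22.8 and 20.8 CPM (0.35, SE 0.08, adjusted p = 0.0197). CTSB was lower, at 1152, 1003 and 1074 CPM (log2 fold change -0.30, SE 0.06, adjusted p = 0.0120). None of these 4 had overlapping groups. Over 13 alternatives the adjusted p ran from 1.4e-05 to 0.0652 for LIPA, from 0.00048 to 0.0637 for GM2A, from 0.0022 to 0.112 for WIPI1 and from 6.8e-07 to 0.0917 for CTSB. Leaving out 6N replicate 1 ended the calls of CTSB (0.0676), GM2A (0.0521) and WIPI1 (0.0559). The CTSB call was also lost without 6N-10CA replicate 2 (0.0757) or 3 (0.0605), and the GM2A call without 6N-10CA replicate 1 (0.0503). The WIPI1 call was lost without 6N replicate 2 (0.112), 6N-10CA replicate 1 (0.0915) or 6N-10CA replicate 2 (0.0642). With only these 2 groups fitted none of the 4 was called, LIPA having an adjusted p of 0.0652.

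In this comparison same-numbered libraries deviated together, and when that number entered the fit as a block 10 of 35 genes (28.6%) were called, 5 higher and 5 lower, against 8.32% of all genes (3.9% higher and 4.42% lower). The 6 genes added by the block were NAGLU, NEU1, CTSA, SQSTM1, ASAH1 and MCOLN1. NAGLU was higher under 6N-10CA, at 133, 129 and 127 CPM (log2 fold change 0.17, adjusted p = 0.0672 without the block and 0.0013 with it). NEU1 was higher, at 508, 514 and 485 CPM (0.25, adjusted p = 0.0768 and 0.00015). CTSA was lower, at 292, 321 and 284 CPM (-0.21, adjusted p = 0.211 and 0.00053). SQSTM1 stood at 288, 311 and 292 CPM under 6N-10CA and 326, 342 and 319 CPM under 6N (-0.15, adjusted p = 0.332 and 0.0049). ASAH1, the acid ceramidase gene, stood at 179, 193 and 179 CPM and at 198, 211 and 199 CPM (-0.14, adjusted p = 0.185 and 0.0093). MCOLN1 had a log2 fold change of -0.27 (adjusted p = 0.168 and 0.0428). In all 6 the 2 groups did not overlap, and 14 of the 35 genes did not, against 17.7% of all genes. The median log2 fold change was -0.01, against 0.0043 over all genes. It was 0.0042 with upper-quartile scaling, -0.046 without 6N replicate 2 and 0.0096 without 6N replicate 3. CTSA and SQSTM1 share 17.7% and 20.7% of their exon bases with NEURL2 and MRNIP on the opposite strand.

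6N-10CA against 10CA called none of the 35 by edgeR, where 0.23% of all genes were called. Blood cell markers (356 to 362 CPM under 6N-10CA, 381 to 431 under 10CA) and stromal markers (6.11 to 8.81 and 9.27 to 11.1 CPM) stood apart, and their part was not tested. At an unadjusted p under 0.05 there were 3 genes, and DESeq2 and limma-voom called 0. The smallest p was that of GM2A, whose 6N-10CA libraries lay above all 10CA libraries (log2 fold change 0.14, SE 0.05, adjusted p = 0.367). The membrane glycoprotein gene LAMP2 stood at 259, 257 and 258 CPM under 6N-10CA and 268, 280 and 281 CPM under 10CA (log2 fold change -0.10, adjusted p = 0.518). NEU1 stood at 444, 495 and 416 CPM under 10CA, and its log2 fold change of 0.15 had an adjusted p of 0.573. With the block, NEU1 was the 1 gene called (adjusted p = 0.0259), against 2.36% of all genes. For 4 of the genes called in 6N against DMSO, the 95% intervals of the difference were -0.10 to 0.16 for CTSB, -0.13 to 0.06 for NAGLU, -0.10 to 0.08 for LIPA and -0.17 to 0.14 for WIPI1, on the log2 scale. The interval lay within 0.25 of 0 for 30 of the 35 genes. The groups did not overlap for 5 genes (14.3%), against 12.5% of all genes.

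**Figure D3:**
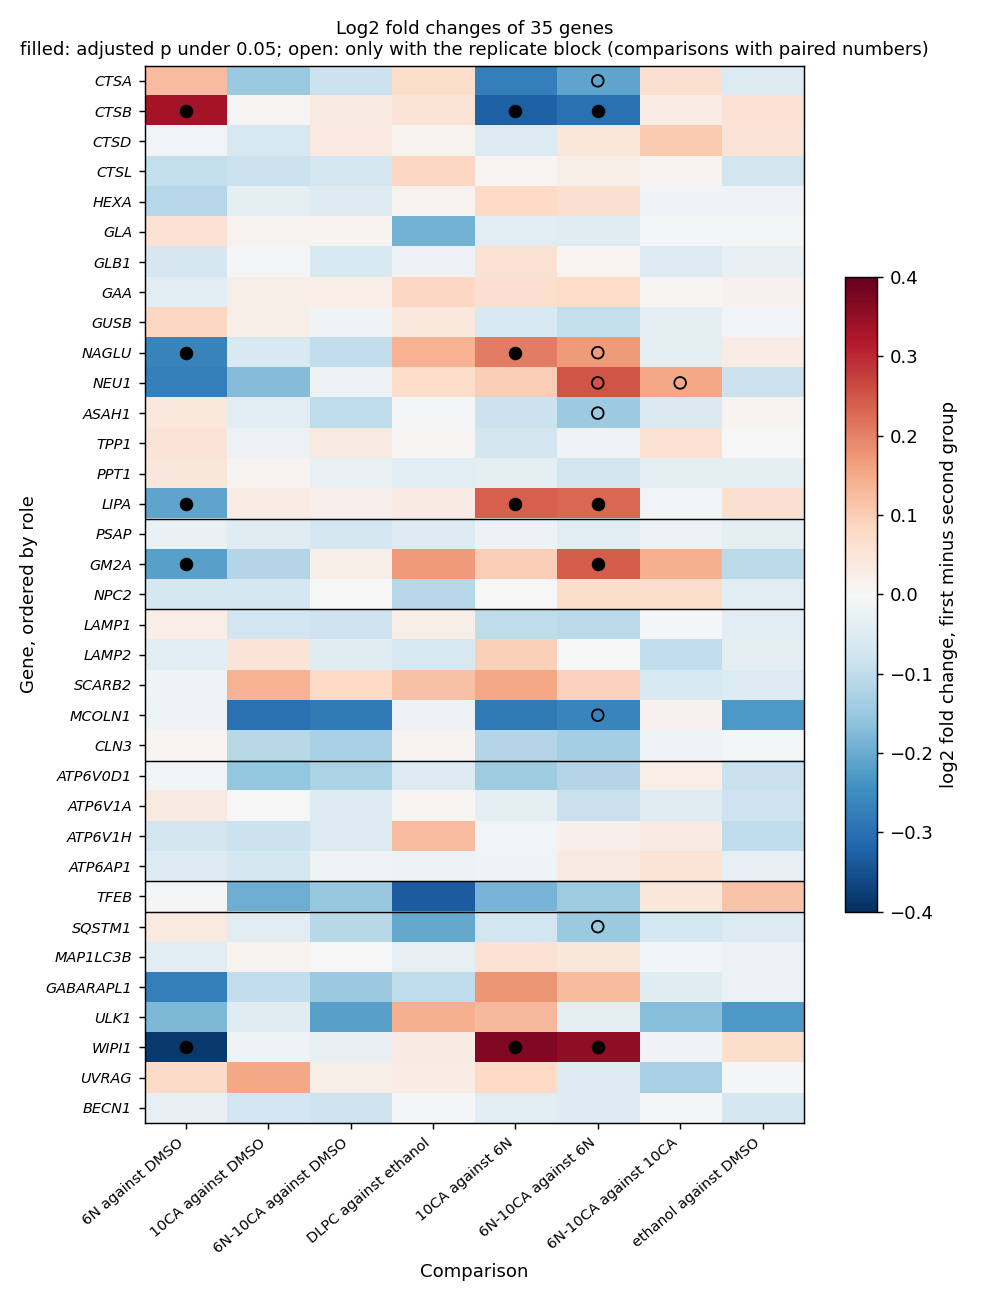
Log2 fold change of the 35 tested genes (rows, by role) in 8 comparisons (columns), first group minus second; filled marks show adjusted p under 0.05 and open marks genes called only with the replicate block, drawn only where the numbers pair the libraries. The filled marks lie in the 3 columns that include 6N, with CTSB at 0.33, -0.33 and -0.30 and WIPI1 at -0.38, 0.37 and 0.35.

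DLPC was given at another dose than the small molecules and is set against ethanol only. None of the 35 genes was called by edgeR, where 1.04% of all genes were. At an unadjusted p under 0.05 there were 8 genes, and limma-voom called 0. DESeq2 called 1 of the 35 (GM2A), where it called 380 over all genes. For 8 genes, or 22.9%, the groups stood apart, against 19.2% of all genes. Values were above 0 for 20 genes and below for 15, with a median log2 fold change of 0.01, or -0.01 against DMSO, and 0.0011 over all genes. GM2A stood at 79.1, 80.7 and 81.9 CPM under ethanol and 87.4, 95.5 and 89.1 CPM under DLPC, without overlap (log2 fold change 0.17, SE 0.05, edgeR adjusted p = 0.111). TFEB stood at 10.9, 11.2 and 11.2 CPM under ethanol and at 7.48, 9.16 and 9.74 CPM under DLPC, also without overlap (log2 fold change -0.33, SE 0.10, adjusted p = 0.123). NAGLU stood at 147, 138 and 140 CPM under ethanol and 164, 154 and 151 CPM under DLPC (log2 fold change 0.14, SE 0.05, adjusted p = 0.160). SQSTM1 stood at 300, 334 and 293 CPM and at 260, 288 and 256 CPM (log2 fold change -0.20, SE 0.07, adjusted p = 0.181). In these 4 genes the sets of libraries stood apart while the adjusted p missed the threshold. Endothelial markers summed to 38.1 to 46.5 CPM under DLPC and 36.3 to 37.9 under ethanol, without overlap. Blood cell markers summed to 433 to 507 and 405 to 460 CPM, and the part of both was not tested. Against their own vehicles, and at different doses, NAGLU had log2 fold changes of 0.14 under DLPC and -0.27 under 6N, and GM2A of 0.17 and -0.22. The vehicles themselves differed in GM2A, with a log2 fold change of -0.11 for ethanol against DMSO, without overlap, and of 0.03 in NAGLU. Against ethanol, 6N had a GM2A value of -0.11. GM2A averaged 90.7 CPM under DLPC and 86.7 CPM under DMSO.

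The 2 vehicles were also compared. Ethanol against DMSO called none of the 35 and 0% of all genes by edgeR, with 2 of the 35 at an unadjusted p under 0.05 and 0 called by DESeq2 or limma-voom. MCOLN1 stood at 10.4, 10.8 and 10.4 CPM under ethanol, below all DMSO libraries (log2 fold change -0.23, edgeR adjusted p = 1). GM2A had a log2 fold change of -0.11 and the autophagy initiator gene BECN1 of -0.07, both with adjusted p = 1. For 5 genes (14.3%) the vehicles' libraries did not overlap, against 8.25% of all genes. Of the 35 values 8 were above 0 and 27 below, with a median of -0.03 on the log2 scale against 0.00062 over all genes, and -0.013 without DMSO replicate 2. For MCOLN1 the vehicle difference was of nearly the size of the differences of 10CA and 6N-10CA from DMSO.

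By role, 3 hydrolases of 15 tested, 1 activator or carrier of 3 and 1 autophagy gene of 7 were called without the block. The share of all genes called in at least 1 comparison was not computed, and the roles are small. These counts therefore cannot show a difference between roles. Without the block no membrane protein (of 5), no proton pump subunit (of 4) and not TFEB was called in any of the 8 comparisons. With it, the membrane protein gene MCOLN1 was called in 6N-10CA against 6N and in 10CA against 6N. SCARB2 and ATP6V0D1 were also called with the block in 10CA against 6N, and TFEB in DLPC against ethanol. In 10CA against 6N and DLPC against ethanol, not every same-numbered pair of libraries passed the pairing check described below. CTSB, LIPA and WIPI1 were called in 3 comparisons each, and NAGLU and GM2A in 2 each. All 10 genes that share over 10% of their exon bases with another annotated gene keep that doubt about which gene their reads came from; they include CTSA, CTSD, CLN3, PPT1, SQSTM1, NAGLU and WIPI1.

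A wider list of 143 other lysosomal and autophagy genes, of which 140 were tested, gave few calls by edgeR. None was called in 6N, 10CA or 6N-10CA against DMSO, where 13, 9 and 17 genes had an unadjusted p under 0.05, limma-voom called 0 and DESeq2 called 0, 1 and 1. None was called in DLPC against ethanol, with 25 at an unadjusted p under 0.05 and 0 by limma-voom. DESeq2 called 1 there, and 380 over all genes. The shares of all genes at an unadjusted p under 0.05 were not computed. In 10CA against 6N, where 1.71% of all genes were called, 1 of the 140 (0.714%) was lower, GALC, the galactosylceramidase, with 5, 5 and 4 counts under 10CA and 10, 19 and 15 under 6N (log2 fold change -1.71, SE 0.43, edgeR adjusted p = 0.0496). GALC was not called by limma-voom, with upper-quartile scaling, with only these 2 groups fitted, or when any 1 of the 3 10CA libraries was left out. In 6N-10CA against 6N, where 1.64% of all genes were called, 1 of the 140 was lower, ATP6V0B, a membrane subunit of the proton pump. It stood at 132, 137 and 124 CPM under 6N-10CA and 155, 151 and 146 CPM under 6N, without overlap (log2 fold change -0.20, SE 0.05, edgeR adjusted p = 0.0343). ATP6V0B was similarly lower in 10CA against 6N (-0.18, edgeR adjusted p = 0.0534) and 10CA against DMSO (-0.19, 0.573). In DLPC against ethanol its value was -0.15 (edgeR adjusted p = 0.152). The groups did not overlap in these comparisons either, though it was not called without the block. The ATP6V0B call was lost with upper-quartile scaling, with only these 2 groups fitted and without 6N replicate 1 or 2 or 6N-10CA replicate 1 or 3. With the replicate block 12 of the 140 (8.57%) were called in this comparison, 5 higher and 7 lower, near the 8.32% of all genes. Among the 13 other proton pump subunits 3 were lower with the block, where 4.42% of all genes were. Only 1 of these, ATP6V0B, was called without it. The smallest p with the block was that of the mitophagy receptor gene BNIP3L, higher at 178, 156 and 167 CPM under 6N-10CA against 152, 127 and 142 CPM under 6N, without overlap (log2 fold change 0.25, adjusted p = 0.181 without and 4.4e-05 with the block). ATP6V0B (adjusted p with the block 0.0014), the protease gene CTSH (log2 fold change -0.15, 0.0028) and the enzyme sorting receptor gene M6PR (-0.17, 0.0092) were lower. In 6N-10CA against DMSO the block called 7 (5%), against 3.8% of all genes. Of these 2 were higher, BNIP3L (log2 fold change 0.17, adjusted p = 0.561 without and 0.0066 with the block) and its relative BNIP3 (0.16, 0.631 and 0.0134). ATP6V0B (-0.21, 0.0837 and 0.0032) and the sulfatase gene ARSB (-0.22, 0.375 and 0.0219) were lower. ARSB was also the 1 gene of the 140 called with the block in 6N-10CA against 10CA (-0.25, 0.367 and 0.0112), where 2.36% of all genes were.

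Part of the set varied with the replicate number. For 7 of 35 genes (20.0%) the library with 1 and the same number was highest in all 6 groups, against 8.4% of all genes, and for 4 (11.4%) it was lowest, against 8.81%. Replicate 2 was highest in every group for CTSA, ASAH1 and SQSTM1, and replicate 1 for CTSD, GAA, NAGLU and GABARAPL1, a conjugation protein of autophagosomes. Replicate 2 was lowest in every group for CTSB, CTSD and PSAP, and replicate 3 for NEU1. On the log2 scale, replicate 2 minus the mean of the other two was 0.18 ± 0.07 (SD, n = 6 groups) for CTSA, 0.16 ± 0.07 for ATP6V0D1, 0.15 ± 0.05 for SQSTM1, -0.13 ± 0.03 for CTSB and -0.18 ± 0.11 for GABARAPL1. The 8 genes with CACGTG in their window had a median of 0.08, with 6 above 0, against -0.01 for the 18 without and 0.017 for all 1053 tested genes with the motif. What the number stands for is not given in the sources used here.

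**Figure D4:**
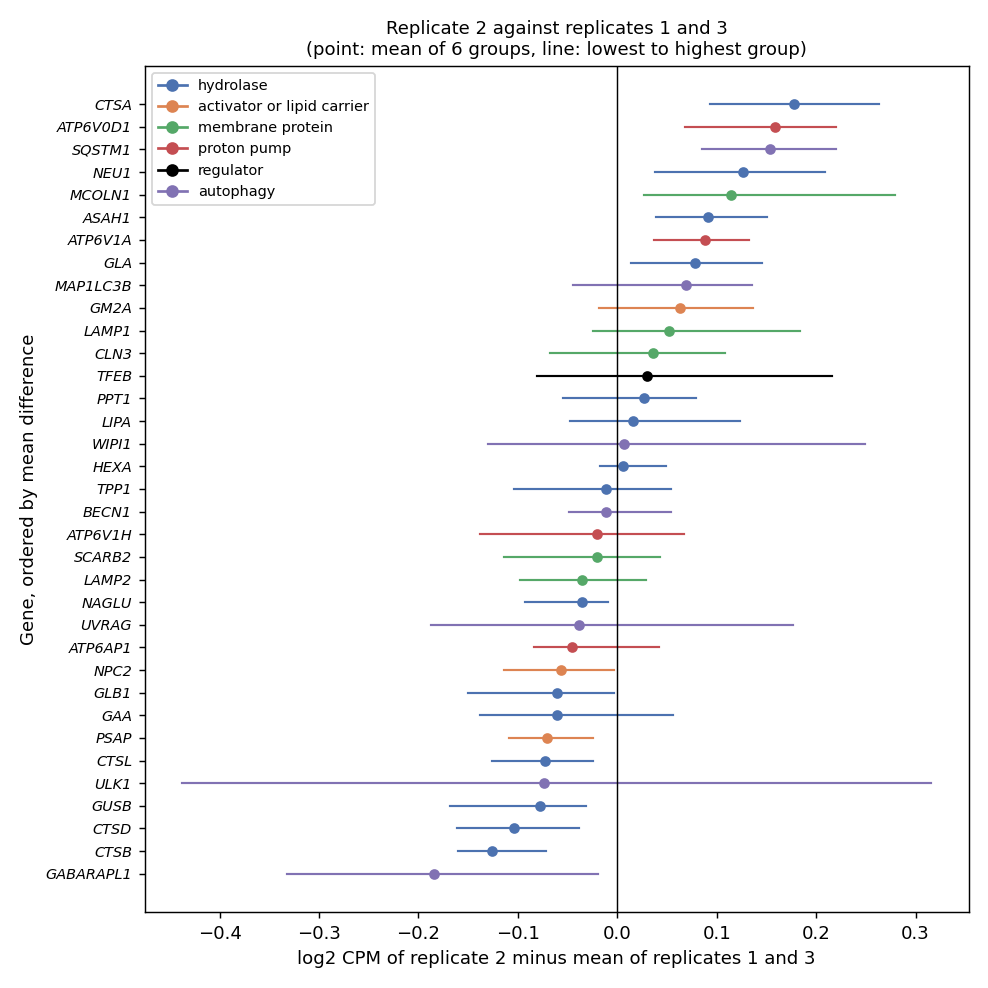
Replicate 2 minus the mean of replicates 1 and 3 within each group, in log2 CPM, for the 35 tested genes in rising order; points are the means of 6 groups and lines run from the lowest to the highest group. GABARAPL1 at -0.18 and CTSB at -0.13 lie toward the low end, and SQSTM1 at 0.15, ATP6V0D1 at 0.16 and CTSA at 0.18 toward the high end.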

How the data were processed

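RNA of 18 HepG2 samples was amplified to cDNA and sequenced as single-end reads of 100 bases, per the labels' protocols. The authors deposited 1 table of raw read counts per gene. Build GRCh38 and DESeq2 are named in the submitters' processing notes, with the aligner, the counter and the strand setting not given in the sources used here. From these counts, edgeR 4.0.16 (limma 3.58.1, R 4.3.3) fitted all 18 libraries with 1 mean per group, after TMM scaling and filterByExpr (minimum count 10, total 15). Quasi-likelihood tests were two-sided with Benjamini-Hochberg adjustment over 14797 genes and a threshold of 0.05. The fit was also run on simulated counts, which lacked the replicate-number pattern. Recovery was required there only for changes larger than those called in the set, so that run does not test calls of this size. CPM use TMM-scaled totals, and intervals are 95%. Depth was 28135967 to 34992442 counts per library, and the biological coefficient of variation was 6.96% (4.42% with the replicate block).

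The 36 genes, the wider list and the tests were chosen with earlier results of these data known. In each comparison, per-library values are given for genes past the threshold with or without the block and for TFEB, and the 3 smallest p where a comparison called none. Of the wider list, the 4 smallest p past the threshold are named per comparison, with the block only where numbers pair libraries. GENCODE exons on GRCh38 gave positions, lengths and overlaps.

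Whether replicate numbers pair libraries was judged from the correlation of same-numbered libraries' deviations from their group means. Every pair exceeded 0.1 in 6N-10CA against DMSO (0.11 to 0.29), against 6N (0.13 to 0.34) and against 10CA (0.15 to 0.35), a pairing read from the data, since the labels give only numbers. Alternatives were RLE and upper-quartile scaling, no filter, DESeq2 1.42.0, limma-voom, fits of only the 2 groups compared, the block, other vehicles, and each library left out.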

Additional observations from a re-analysis of the deposited data

How the results depend on the processing

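No named gene changed direction in 580 recomputed values; 513 kept their side of the threshold, 30 passed it newly and 37 lost it. Of 112 recomputed counts of called genes of the set, 93 stayed within 1.5 times. The count moved in 6N against DMSO from 5 to 2 with only the 2 groups compared and to 2 to 5 on leaving out 1 library. In 10CA against 6N it moved from 4 to 1 with only the 2 groups and to 2 to 4 without 1 library. In 6N-10CA against 6N it moved from 4 to 0 with only the 2 groups and to 1 to 4 without 1 library. In DLPC against ethanol it moved from 0 to 1 without the filter, 1 with DESeq2 and 2 with both vehicles averaged.

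With the replicate block, 8 of the 35 genes (22.9%) passed in 6N against DMSO and 8 (22.9%) in 10CA against 6N. The block gave 4 (11.4%) in DLPC against ethanol, 10 (28.6%) in 6N-10CA against 6N and 1 (2.86%) in 6N-10CA against 10CA. Beyond the calls without it, these included CTSA, HEXA and NEU1 in 6N against DMSO, CTSA, SCARB2, MCOLN1 and ATP6V0D1 in 10CA against 6N, and NAGLU, GM2A, TFEB and SQSTM1 in DLPC against ethanol. Counts over all genes rose with the block to 551, 32, 562, 997, 1133, 1231, 349 and 18 in the 8 comparisons in the order of the plot of fold changes, from 169, 0, 39, 154, 253, 242, 34 and 0. In the 5 comparisons without 6N-10CA, the lowest same-number correlation was 0.038 to 0.069, under the cut of 0.1, which was a choice. Over all 45 same-number pairs of libraries the correlation ran from 0.026 to 0.35. Pairs with other numbers ran from -0.36 to 0.099. All 18 libraries correlated best on average with their own number, so some pairing was present in those 5 comparisons too. DESeq2 called 13, 173, 380, 496, 501, 119 and 13 genes in the 7 comparisons after 6N against DMSO. Without the filter the same 7 gave 20, 126, 329, 423, 403, 154 and 37. With only the 2 groups compared, all-gene counts fell to 13 in 6N-10CA against DMSO, 112 in 10CA against 6N, 109 in 6N-10CA against 6N and 10 in 6N-10CA against 10CA. Ethanol, or both vehicles averaged, gave 265 and 270 for 6N and 63 and 129 for 6N-10CA, and DMSO or both gave 380 and 541 for DLPC. Leaving out 1 library gave 111 to 149 in 6N against DMSO, 12 to 23 in 6N-10CA against DMSO, 56 to 118 in DLPC against ethanol, 141 to 338 in 10CA against 6N, 138 to 235 in 6N-10CA against 6N and 14 to 28 in 6N-10CA against 10CA. Of the 140 tested genes of the wider list, the block called 6 (4.29%) in 6N against DMSO and 1 (0.714%) in 10CA against DMSO. It called 10 (7.14%) in DLPC against ethanol and 16 (11.4%) in 10CA against 6N. Over all 14797 tested genes it called 551, 32, 997 and 1133 in the same order. An excess in the wider list over all genes was not tested. The median of the set in 6N-10CA against 10CA moved from -0.010 to -0.031 without 6N-10CA replicate 1. The causes of these moves were not tested. The 95% interval had a median half-width of 0.11 on the log2 scale.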
